A study of Homo sapiens with 12 samples.

Results

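The Hippo pathway ends in YAP1 and the TEAD transcription factors, and 10 genes around that output were examined: CCN1, CCN2, ANKRD1, AMOTL2, AJUBA, LATS2, AXL, CRIM1, TEAD1 and YAP1. The genes were chosen by name, as known targets or factors of the pathway, when earlier results of these data had been seen. All 10 were found among the 22963 names for which expression was deposited. RNA was sequenced from 12 libraries of human hepatocellular carcinoma lines, in 4 groups of 3. PLC/PRF5 cells carried either the empty lentiviral vector (vector) or the same vector with the coding sequence of the transcription factor EGR1 behind a CMV promoter (EGR1 overexpression). MHCC97H cells were either parental, with the EGR1 genotype given as wild type, or labelled EGR1 knockout, made with lentiviral CRISPR and grown as single clones, and which clone each library came from is not given in the sources used here. The study asked how more or less EGR1 changes expression in these cells. Expression was given as FPKM, the fragments of a gene scaled to its length and to the fragments of the library.

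In the Hippo pathway, the kinases STK3 and STK4 with the scaffold SAV1 activate LATS1 and LATS2, which phosphorylate YAP1 and its relative WWTR1 (TAZ) and keep them out of the nucleus. When the kinases are inactive, YAP1 enters the nucleus and binds a TEAD factor, since it has no DNA-binding domain of its own, and the pair activates genes of growth, matrix contact and survival. Several targets restrain YAP1 in turn, LATS2 and AMOTL2 among them. In the liver the pathway limits organ size, and YAP1 activity is common in hepatocellular carcinoma.

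EGR1 itself was read first, as a check of the labels. In PLC/PRF5 it was 1.97, 1.43 and 2.03 FPKM in the vector libraries and 56.3, 50.2 and 52.2 FPKM with EGR1 overexpression, a difference of log2(FPKM + 1) of 4.27 (SE 0.11, limma adjusted p = 1.579e-07). In MHCC97H it was 20.2, 23.1 and 21.2 FPKM in the parental libraries and 35.2, 50.3 and 32.9 FPKM in those labelled knockout, a difference of 0.83 (SE 0.15, limma adjusted p = 0.001255). With GC content and length corrected this difference was 0.42 and did not pass (adjusted p = 0.06206). EGR1 mRNA was thus higher under the knockout label as deposited, and the mRNA level does not show whether protein is made. The study reports that its knockout clones were checked by western blot and DNA sequencing. Every direction given for these libraries is that of a label.

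The summed FPKM of the libraries ran from 376335 to 437652, and Pearson's r between replicate libraries, across genes, was 0.993 to 0.997. The number of reads is unknown, so counting error cannot be given. Of 10 hepatocyte markers, 9 averaged at least 1 FPKM in both PLC/PRF5 groups and 6 in both MHCC97H groups, where APOA1, TTR and SERPINA1 were below 1 in both, ALB in the parental cells and APOB under the label. Hepatocyte markers moved in both directions by mean FPKM. Under the label ALB was 17.2-fold higher than in parental cells, and APOB 8.48-fold and HNF4A 1.22-fold lower. With EGR1, APOA1 was 35.5-fold higher than with vector and TF 1.37-fold lower. PTPRC (CD45), COL1A1 and VWF were below 1 FPKM in every group. Summed over 6 fibroblast markers, FPKM was 7.52 to 10.9 in parental MHCC97H and 1.05 to 1.54 in the libraries labelled knockout, with LUM the only marker at 1 or more. Summed over 5 cholangiocyte and progenitor markers it was 126 to 154 and 240 to 279, and in PLC/PRF5 14.7 to 15.4 with vector and 7.49 to 9.31 with EGR1. Endothelial markers summed to 1.5 to 2.66 FPKM in PLC/PRF5, 5.5 to 5.75 in parental MHCC97H and 7.25 to 8.55 under the label, and macrophage and leukocyte markers to 125 to 216, 27.2 to 30.8 and 52.8 to 58.1, where CD68, with LYZ in PLC/PRF5 and CD14 under the label, were the genes at 1 or more. The part of these differences in the results on the pathway was not tested.

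TEAD factors bind DNA at the core GGAATG, so the promoter windows of the genes were searched for it. Windows of 300 bases, from 250 before to 50 after a transcription start, were taken from RefSeq on GRCh38.p14, which gave 10 windows for 7 of the 10 genes and none for CCN1, CRIM1 and TEAD1. The core, on either strand (GGAATG or CATTCC), was present in 7 of these 10 windows, 1 in each of the 7 genes, against 14.0% of all 35116 windows. Some of these genes became known as targets through such sites, so the share is a description. The windows of CCN2 and ANKRD1 are shown because they held the most matches, that of YAP1 because the factor's own gene held one, and that of LATS2 because its match lay downstream of the start. All 4 are written 5′ to 3′ on the gene's own strand with the TEAD core in capitals.
CCN2 (chr6:131951323-131951622, minus strand): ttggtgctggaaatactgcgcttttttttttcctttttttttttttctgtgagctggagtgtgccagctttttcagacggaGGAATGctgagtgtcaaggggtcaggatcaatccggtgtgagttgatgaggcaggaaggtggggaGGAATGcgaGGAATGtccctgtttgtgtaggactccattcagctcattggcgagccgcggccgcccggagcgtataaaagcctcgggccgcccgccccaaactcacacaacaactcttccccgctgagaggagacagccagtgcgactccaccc
ANKRD1 (chr10:90921038-90921337, minus strand): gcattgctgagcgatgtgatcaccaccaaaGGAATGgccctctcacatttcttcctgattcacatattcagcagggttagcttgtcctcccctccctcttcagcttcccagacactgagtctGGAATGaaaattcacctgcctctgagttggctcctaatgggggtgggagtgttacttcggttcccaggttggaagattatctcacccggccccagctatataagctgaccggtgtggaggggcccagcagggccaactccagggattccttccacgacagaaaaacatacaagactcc
YAP1 (chr11:102110197-102110496, plus strand): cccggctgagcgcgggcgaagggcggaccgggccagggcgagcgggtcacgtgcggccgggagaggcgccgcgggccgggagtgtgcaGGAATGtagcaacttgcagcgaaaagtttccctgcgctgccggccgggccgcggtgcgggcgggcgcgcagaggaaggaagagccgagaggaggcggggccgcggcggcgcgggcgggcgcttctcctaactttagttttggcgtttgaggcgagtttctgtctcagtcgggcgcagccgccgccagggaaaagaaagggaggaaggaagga
LATS2 (chr13:21061537-21061836, minus strand): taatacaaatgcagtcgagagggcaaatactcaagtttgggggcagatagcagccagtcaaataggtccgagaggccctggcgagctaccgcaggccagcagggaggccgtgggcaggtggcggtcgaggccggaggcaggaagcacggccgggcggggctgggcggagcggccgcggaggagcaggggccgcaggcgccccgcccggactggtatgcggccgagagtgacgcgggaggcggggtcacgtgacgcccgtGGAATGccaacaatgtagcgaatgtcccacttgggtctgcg

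Counted from the transcription start to the first base of the match, the CCN2 cores lay at -169, -104 and -95, and 0.128% of all windows held 3 or more. The ANKRD1 cores lay at -220 and -128, and 1.37% of all windows held 2 or more. The YAP1 core lay at -162 and the LATS2 core at 10. In AJUBA, AMOTL2 and AXL the match lay in the second of 2 windows, at -59, -69 and -212. An EGR1 element (GCGTGGGCG or GCGGGGGCG, either strand) was in 0 of the 10 windows and in 5.77% of all windows. An AP-1 site (TGANTCA, which reads alike on both strands) was in 1 of them, that of ANKRD1 at -195, and in 7.71% of all. The CArG box of serum response factor was in 0 of the 10 and in 1.29% of all windows. These letters say nothing of binding in these cells.

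In PLC/PRF5 cells, CCN1, AMOTL2, AJUBA, LATS2, TEAD1 and YAP1 rose with EGR1 overexpression, AXL fell, and CCN2 and CRIM1 did not pass the test. ANKRD1 also passed as deposited, as the seventh of the 10 with a higher value, but it reached the minimum of 1 FPKM through the EGR1 libraries (means 0.846 and 1.48 FPKM), so its call counts for little. CCN1 rose most, 2.48-fold by mean FPKM, followed by TEAD1, 1.92-fold. AXL was 1.72-fold lower in the EGR1 libraries. Of all 11671 genes tested, 29.6% passed the test, 19.2% higher and 10.4% lower. The median difference of log2(FPKM + 1) over the 10 genes was 0.43, against 0.09 over all genes tested. Higher genes made up 64.8% of the calls as deposited, 46.3% with quantile normalization and 48.5% with GC content and length corrected. Tests were made with limma on log2(FPKM + 1), adjusted over all genes tested with a threshold of 0.05. An exact permutation test of 3 against 3 libraries cannot go below 0.1.

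Among the secreted and cytoplasmic targets, CCN1 (CYR61), a matricellular protein that binds integrins, was 40.7, 42.0 and 40.5 FPKM in the vector libraries and 102.7, 102.0 and 100.4 with EGR1. The groups were far apart, with a difference of log2(FPKM + 1) of 1.29 (SE 0.08, adjusted p = 2.065e-05). CCN2 (CTGF), its close relative and the gene with 3 TEAD cores above, was 49.0, 49.1 and 49.8 FPKM in vector and 47.6, 44.8 and 43.0 FPKM in EGR1 cells. Every EGR1 library was lower than every vector library, but the difference of -0.13 (95% confidence interval -0.31 to 0.05) did not pass the test (adjusted p = 0.2485). Groups that do not overlap were common here, in 47.7% of all genes tested and 9 of the 10 genes. ANKRD1, an ankyrin repeat protein that shuttles between the sarcomere and the nucleus in muscle, was 0.643, 0.816 and 1.08 FPKM in vector and 1.4, 1.67 and 1.36 FPKM in EGR1 libraries. Its difference was 0.43 (SE 0.12, adjusted p = 0.02777), from low levels. That call was lost, at adjusted p = 0.08785, 0.05255, 0.1048 and 0.05829, without vector replicate 1, vector replicate 2, EGR1 replicate 2 or EGR1 replicate 3, and with quantile normalization (adjusted p = 0.07453) or with every gene above 0 tested (adjusted p = 0.05168).

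**Figure D1:**
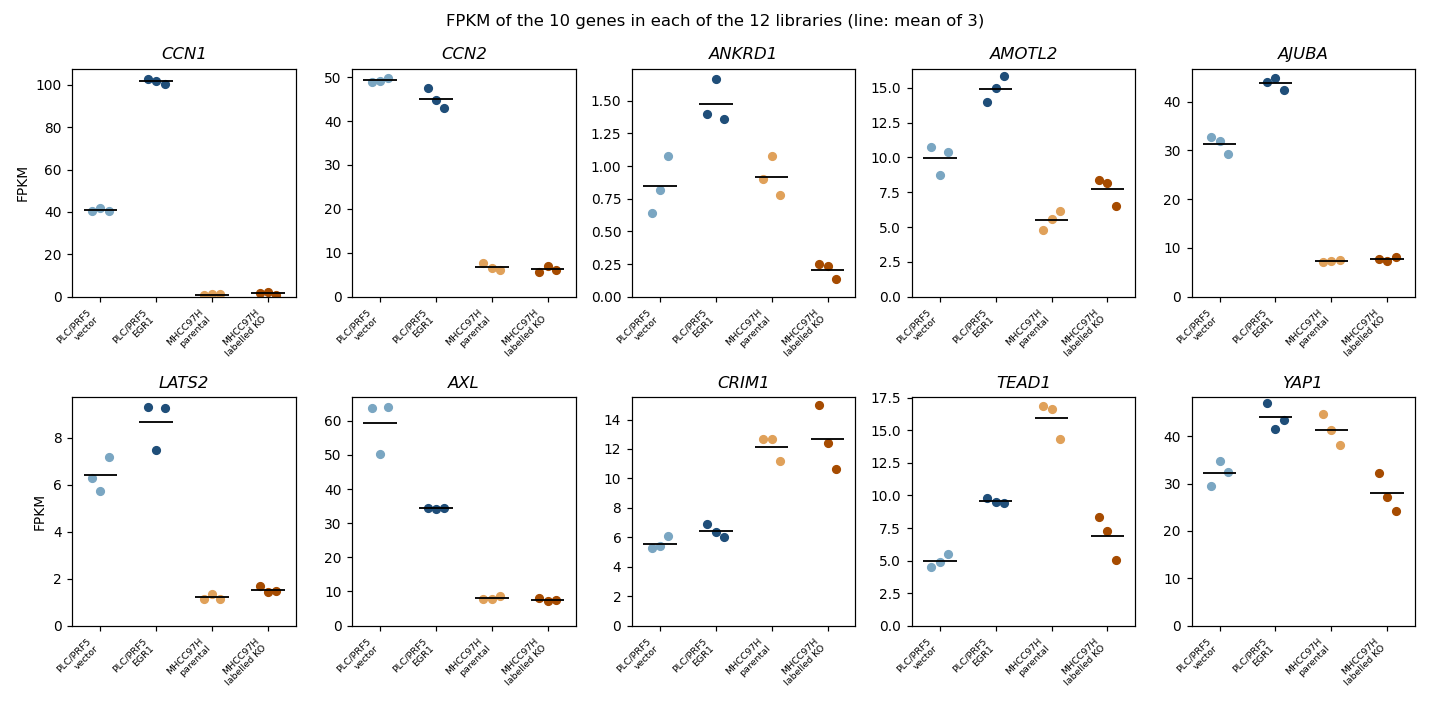
FPKM of the 10 genes (vertical axes, each from 0) in the 12 libraries, 1 point per library, with the mean of 3 as a line. CCN1 stood at 100.4 to 102.7 FPKM with EGR1 against 40.5 to 42.0 with vector and at 0.799 to 2.03 in MHCC97H, while TEAD1 was highest in parental MHCC97H.

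The targets that act back on the pathway, AMOTL2, AJUBA and LATS2, each rose in PLC/PRF5. AMOTL2, an angiomotin family scaffold that holds YAP1 at junctions, was 10.7, 8.76 and 10.4 FPKM in vector and 14.0, 15.0 and 15.8 FPKM in EGR1 libraries (difference 0.54, SE 0.10, adjusted p = 0.005587). AJUBA, a LIM protein that inhibits LATS kinases, was 32.7, 31.8 and 29.2 FPKM and rose to 43.9, 44.9 and 42.4 FPKM (difference 0.48, SE 0.08, adjusted p = 0.004061). Neither gene's groups overlapped. LATS2, the kinase that inactivates YAP1, was 6.28, 5.75 and 7.20 FPKM in vector and 9.32, 7.48 and 9.27 FPKM in EGR1 libraries, with a gap of less than 0.5 FPKM between the groups (difference 0.39, SE 0.12, adjusted p = 0.03739). This call was lost without vector replicate 1, vector replicate 2, EGR1 replicate 1 or EGR1 replicate 3, at adjusted p = 0.08465, 0.07242, 0.09765 and 0.1266, and with libraries scaled to a common total or quantile normalized or every gene above 0 tested, at adjusted p = 0.08143, 0.1504 and 0.07764.

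Of the 2 surface proteins of the set, one fell and one did not pass. AXL, a receptor tyrosine kinase for the ligand GAS6, was 63.8, 50.2 and 64 FPKM in vector and 34.5, 34.3 and 34.5 FPKM in EGR1 libraries. The vector libraries spread more widely than the EGR1 libraries, and the lowest of them was still well above all 3 (difference -0.76, SE 0.11, adjusted p = 0.001746). CRIM1, a transmembrane protein that binds BMP ligands, was 5.27, 5.39 and 6.05 FPKM in vector and 6.92, 6.39 and 6.03 FPKM in EGR1 libraries, with overlapping groups (difference 0.18, 95% confidence interval -0.04 to 0.40, adjusted p = 0.1878).

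The factors themselves were also higher. TEAD1 was 4.5, 4.92 and 5.52 FPKM in vector and 9.79, 9.49 and 9.40 FPKM in EGR1 libraries (difference 0.82, SE 0.10, adjusted p = 0.0007815). YAP1 was 29.5, 34.7 and 32.5 FPKM in vector and 47.0, 41.6 and 43.4 FPKM in EGR1 libraries (difference 0.44, SE 0.09, adjusted p = 0.008957). Their groups did not overlap. Changes in these libraries followed transcript GC content (Spearman's rho -0.44 across 10994 genes, which are not independent), and TEAD1 and YAP1, at 41.3% and 43.5% GC, lie below the median of 48.2%. With GC content and length corrected, the TEAD1 difference was 0.54 (adjusted p = 0.000736) and the YAP1 difference 0.28 (adjusted p = 0.01564). After this correction 6 of the 10 genes were higher and AXL lower, with 33.8% of all genes passing (16.4% higher and 17.4% lower), the median over the 10 genes was 0.34, and ANKRD1 no longer passed (difference 0.33, adjusted p = 0.05977).

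**Figure D2:**
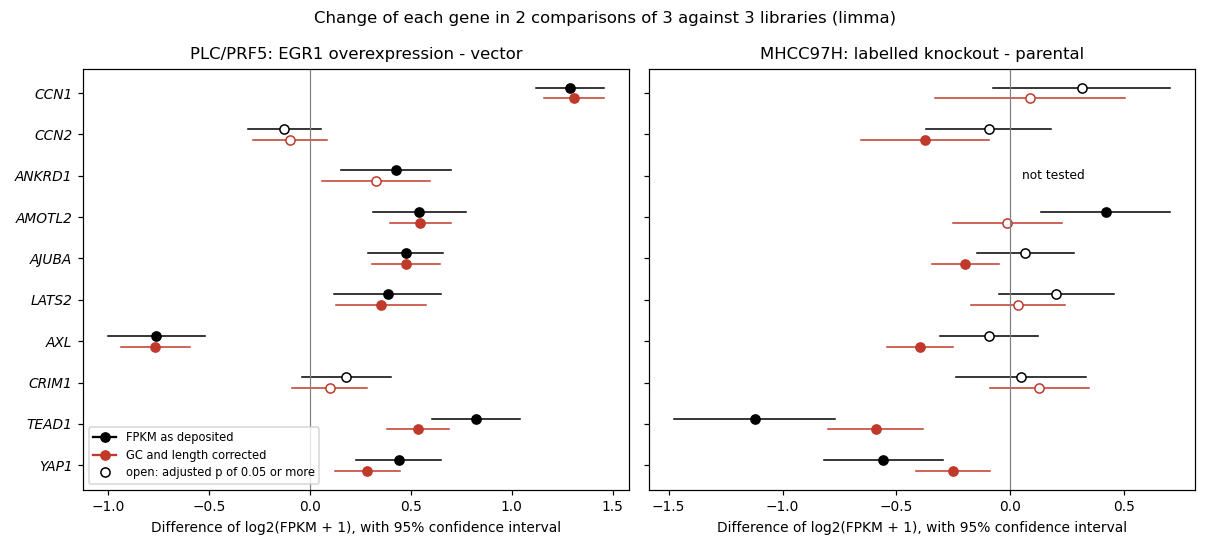
Difference of log2(FPKM + 1) for each gene with its 95% confidence interval (horizontal axes), in PLC/PRF5 (left) and MHCC97H (right), from FPKM as deposited (black) and with GC content and length corrected (red). Filled points passed the test: 8 of 10 on the left and 3 of 9 on the right as deposited, and 7 and 5 after correction, where ANKRD1 lost its call on the left and AMOTL2 went from 0.42 to -0.01 on the right.

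In MHCC97H, TEAD1 and YAP1 were lower in the libraries labelled knockout than in parental libraries, AMOTL2 was higher, and 6 of the 9 genes tested did not pass. By mean FPKM, TEAD1 was 2.31-fold and YAP1 1.48-fold lower, and AMOTL2 was 1.4-fold higher. Against a background of 66.3% of 11577 genes passing, 34.8% higher and 31.5% lower, 3 of 9 is a smaller share. Groups of all genes did not overlap in 71.8% and those of the 9 genes in 4. The median difference was 0.05 over the 9 genes and 0.02 over all genes tested. Scaling libraries to a common total moved the latter to -0.11 and the share of higher genes among the calls from 52.5% to 41.6%.

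TEAD1 was 16.9, 16.6 and 14.3 FPKM in parental libraries and 8.37, 7.26 and 5.06 FPKM in those labelled knockout (difference -1.12, SE 0.16, adjusted p = 0.0003483). YAP1 was 44.7, 41.2 and 38.2 FPKM and then 32.3, 27.2 and 24.3 FPKM (difference -0.56, SE 0.12, adjusted p = 0.002597). Both genes were lower in all 3 libraries under the knockout label, with no overlap. AMOTL2 was 4.81, 5.60 and 6.12 FPKM in parental libraries and 8.39, 8.19 and 6.54 FPKM under the label (difference 0.42, SE 0.13, adjusted p = 0.01596). The AMOTL2 groups lay close together, and the call was lost without parental replicate 1 (adjusted p = 0.06044), without knockout-labelled replicate 1 (adjusted p = 0.05973) and with libraries scaled to a common total (adjusted p = 0.09597).

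ANKRD1 was 0.899, 1.08 and 0.782 FPKM in parental libraries and 0.251, 0.238 and 0.133 FPKM in those labelled knockout, 4.44-fold lower by mean FPKM with no overlap. It averaged under the minimum of 1 FPKM and was not tested. When every gene above 0 in a library was tested instead, its difference was -0.67 (SE 0.07, adjusted p = 0.001445). At levels this low that call counts for little.

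The other 6 genes did not pass. CCN1 was 0.799, 1.02 and 1.09 FPKM in parental libraries and 1.55, 2.03 and 0.891 FPKM under the label, with 1 of the 3 inside the parental range (difference 0.31, 95% confidence interval -0.07 to 0.70, adjusted p = 0.1342). It passed without knockout-labelled replicate 3 (difference 0.50, adjusted p = 0.01565). CCN1 reached the minimum of 1 FPKM through the libraries under the label (means 0.970 and 1.49 FPKM), so that call counts for little. CCN2 was 7.69, 6.53 and 6.06 FPKM against 5.64, 7.08 and 6.07 FPKM, with overlap (difference -0.10, 95% confidence interval -0.37 to 0.18, adjusted p = 0.5062). LATS2 was 1.13, 1.35 and 1.13 FPKM against 1.69, 1.41 and 1.49 FPKM. Its groups did not overlap, and its difference of 0.20 did not pass (95% confidence interval -0.05 to 0.45, adjusted p = 0.1364). AJUBA was 7.02, 7.41 and 7.56 FPKM against 7.73, 7.32 and 8.09 FPKM, with overlap (difference 0.06, 95% confidence interval -0.15 to 0.28, adjusted p = 0.5631). AXL was 7.85, 7.93 and 8.60 FPKM against 8.0, 7.27 and 7.36 FPKM (difference -0.09, 95% confidence interval -0.31 to 0.12, adjusted p = 0.4034). CRIM1 was 12.6, 12.6 and 11.2 FPKM against 15.0, 12.4 and 10.6 FPKM, the knockout-labelled libraries lying on both sides of the parental ones (difference 0.05, 95% confidence interval -0.24 to 0.33, adjusted p = 0.7537).

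Changes in MHCC97H followed transcript GC content more closely than in PLC/PRF5 (Spearman's rho 0.75 across 10969 genes). TEAD1 and YAP1 lie below the median GC content of 48.3% and AMOTL2, at 56.7%, above it. With GC content and length corrected, 5 of the 9 genes passed, all lower, against 47.5% of all genes passing and 23.1% lower, and the median difference was -0.20 over the 9 genes and -0.01 over all genes. TEAD1 differed by -0.59 (adjusted p = 0.001333) and YAP1 by -0.25 (adjusted p = 0.01975), while CCN2 at -0.38 (adjusted p = 0.03427), AXL at -0.40 (adjusted p = 0.00152) and AJUBA at -0.20 (adjusted p = 0.03335) now passed. AMOTL2 moved to -0.01 (adjusted p = 0.9267). Biological and technical changes that run with GC content are removed alike by this correction and cannot be told apart here.

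**Figure D3:**
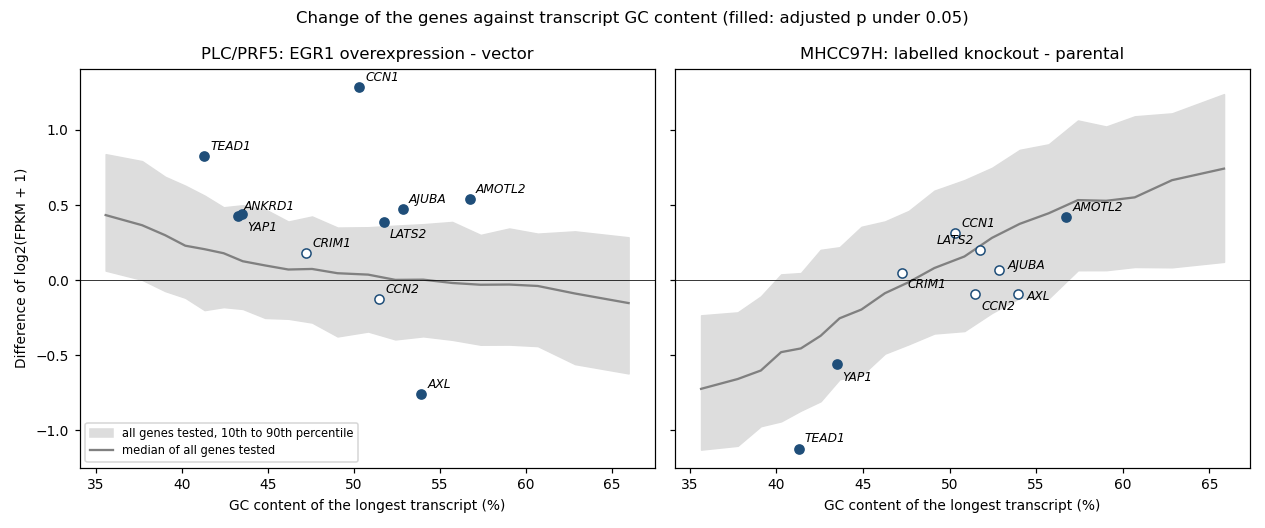
Difference of log2(FPKM + 1) (vertical axes) against the GC content of each gene's longest transcript (horizontal axes, %), for the genes tested in PLC/PRF5 (left) and MHCC97H (right), with the median of all genes as a line and the 10th to 90th percentile in grey. In MHCC97H, TEAD1 and YAP1, at 41.3% and 43.5% GC, lie below the rising line and AMOTL2, at 56.7%, close to it, while CCN1 and AXL lie far outside the grey band in PLC/PRF5, above and below it.

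The change under the knockout label was then set against the change under EGR1 overexpression in one fit of all 12 libraries. Of the 9 genes tested, 5 passed, 1 with a higher and 4 with a lower value, against 63.8% of 12090 genes, 30.4% higher and 33.4% lower. The difference between the changes was -1.95 for TEAD1 (SE 0.19, adjusted p = 7.868e-06) and -1.0 for YAP1 (SE 0.15, adjusted p = 0.0001366), which rose in one comparison and fell in the other. It was -0.98 for CCN1 (SE 0.19, adjusted p = 0.0008081) and -0.41 for AJUBA (SE 0.10, adjusted p = 0.004269), and 0.67 for AXL (SE 0.13, adjusted p = 0.0009114). For these 3 the knockout-labelled comparison alone did not pass. CCN1 reached the minimum of 1 FPKM through PLC/PRF5. It averaged 0.970 and 1.49 FPKM in the MHCC97H groups, where adding 1 to FPKM shrinks its change, so its call counts for little. With GC content and length corrected the values were -1.14 for TEAD1 and -0.55 for YAP1 (adjusted p = 7.2e-06 and 0.0007678), and 6 of the 9 genes passed, 1 higher and 5 lower, against 50.5% of all genes, 26.1% higher and 24.4% lower. The changes of AMOTL2, -0.12 (95% confidence interval -0.48 to 0.23), LATS2, -0.18 (-0.51 to 0.14), CCN2, 0.03 (-0.26 to 0.32), and CRIM1, -0.13 (-0.48 to 0.21), did not differ past the threshold, and AMOTL2 did with the correction, at -0.55 (adjusted p = 0.003181).

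The 2 control groups were also compared. Parental MHCC97H was lower than vector PLC/PRF5 for 6 of the 9 genes tested and higher for CRIM1, TEAD1 and YAP1, against 79.8% of 12046 genes passing, 38.8% higher and 40.9% lower. This comparison shares its libraries with the others, and the cell line cannot be told apart from the vector. By mean FPKM, CCN1 was 42.3-fold lower in MHCC97H, AXL 7.31-fold, CCN2 7.29-fold, LATS2 5.33-fold, AJUBA 4.26-fold and AMOTL2 1.81-fold. The differences of log2(FPKM + 1) ran from -4.42 for CCN1 (SE 0.10, adjusted p = 1.784e-09) to -0.75 for AMOTL2 (SE 0.12, adjusted p = 0.0003435). CCN1 reached the minimum of 1 FPKM through the vector libraries (means 41.1 and 0.970 FPKM). Its call thus counts for little, and its ratio rests on a low level in MHCC97H. TEAD1 was 3.20-fold higher in MHCC97H (difference 1.5, SE 0.11, adjusted p = 2.171e-06) and CRIM1 2.18-fold higher (difference 1.00, SE 0.10, adjusted p = 1.762e-05). YAP1 was 1.28-fold higher (difference 0.35, SE 0.09, adjusted p = 0.007655), a call that the GC and length correction removed (difference 0.02, adjusted p = 0.7578), which left 2 of the 9 genes higher and 6 lower where 39.3% of all genes were higher and 41.6% lower. The 9 genes did not overlap between these groups, nor did 81% of all genes tested, and the groups of ANKRD1, which was not tested, did.

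Ordered by mean FPKM over the 4 groups, CCN1, AJUBA, AMOTL2 and LATS2 took the same order, with EGR1-overexpressing PLC/PRF5 highest, then vector, then MHCC97H labelled knockout, then parental. The last pair overlapped for CCN1 and AJUBA. AXL and CCN2 were highest in vector, then EGR1 cells, and their 2 MHCC97H groups overlapped. CRIM1 ran the other way, with both MHCC97H groups, which overlapped, above both PLC/PRF5 groups, which also overlapped. TEAD1 was highest in parental MHCC97H, then EGR1 cells, and the knockout-labelled and vector groups overlapped below these. For YAP1, the EGR1 and parental groups overlapped at the top and the vector and knockout-labelled groups at the bottom. On the FPKM scale, which is per length, the most abundant of the 10 genes was CCN1 in EGR1 cells at 102 ± 1.18 FPKM, AXL in vector cells at 59.4 ± 7.92 FPKM and YAP1 in both MHCC97H groups at 41.4 ± 3.29 and 27.9 ± 4.06 FPKM (SD, n = 3).

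Relatives of the factors showed a different balance in each line. WWTR1, the second coactivator, was 2.71, 3.17 and 3.26 FPKM in vector PLC/PRF5 and 37.6, 34.9 and 31.6 FPKM in parental MHCC97H, 11.4-fold higher (difference 3.14, SE 0.10, adjusted p = 1.754e-08). It passed in neither EGR1 comparison as deposited (differences 0.11 and -0.09). Under the knockout label, 2 alternatives gave opposite directions for WWTR1. It was higher after the GC and length correction (difference 0.37, adjusted p = 0.001881) and lower with quantile normalization (difference -0.27, adjusted p = 0.0441). TEAD2 averaged 20.4 to 25.2 FPKM in the 4 groups and passed in none of these 3 comparisons as deposited, with differences of -0.15, 0.19 and -0.05, while with the correction it was lower under the label (-0.38, adjusted p = 0.001873) and higher in parental MHCC97H than in vector cells (0.40, adjusted p = 0.0004746). Without parental replicate 3 it was higher under the label (0.28, adjusted p = 0.0328). TEAD3 and TEAD4 were lower in parental MHCC97H than in vector cells, by -1.18 (adjusted p = 2.805e-06) and -0.78 (adjusted p = 0.0006192). Under the knockout label they were higher, by 0.50 (adjusted p = 0.002666) and 0.46 (adjusted p = 0.01202), and after correction neither was (-0.08 and -0.23, adjusted p = 0.5259 and 0.06997). In EGR1 cells TEAD4 differed by 0.34 (adjusted p = 0.05549), and by 0.42 with the correction (adjusted p = 0.01347), and it passed as deposited without EGR1 replicate 1 (adjusted p = 0.02989). VGLL4, which competes with YAP1 for TEAD factors, was 2.29-fold higher in parental MHCC97H than in vector cells and rose under the label by 0.40 (adjusted p = 0.004825, and 0.1109 with the correction). VGLL1 and VGLL3 averaged under 0.5 FPKM in every group. With libraries scaled to a common total, 1 of the 3 rises of TEAD3, TEAD4 and VGLL4 under the label passed. With quantile normalization that of VGLL4 did not (adjusted p = 0.05288).

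**Figure D4:**
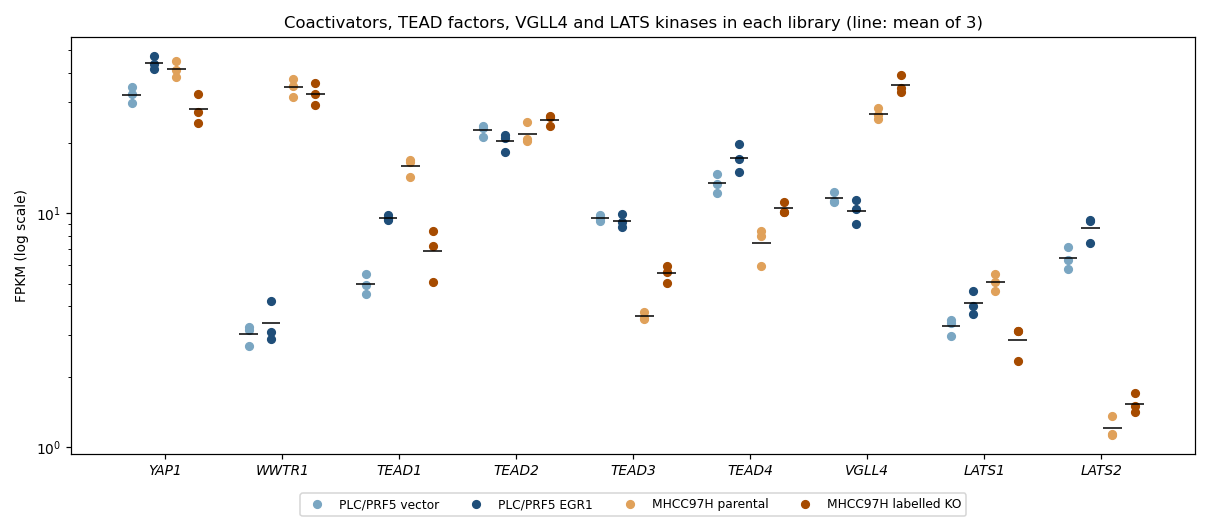
FPKM on a log scale (vertical axis) of coactivators, TEAD factors, VGLL4 and LATS kinases in each library, coloured by group, with the mean of 3 as a line. WWTR1 separates the lines at 2.71 to 4.19 FPKM in PLC/PRF5 and 29.2 to 37.6 FPKM in MHCC97H, and LATS2 separates them in the opposite direction, at 5.75 to 9.32 against 1.13 to 1.69 FPKM.

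Within the families of the other genes, LATS1 averaged 3.29 and 4.12 FPKM in vector and EGR1 cells (difference 0.25, adjusted p = 0.1092). In MHCC97H it averaged 5.08 FPKM in parental libraries and 2.86 FPKM in those labelled knockout (difference -0.66, adjusted p = 0.001615), and with the GC and length correction this was -0.06 (adjusted p = 0.5237). Parental MHCC97H thus held more LATS1 than LATS2 mRNA and vector PLC/PRF5 more LATS2 than LATS1. AMOT and AMOTL1, the other angiomotins, averaged under 0.6 FPKM in every group. LIMD1, an AJUBA relative, rose under the label by 0.37 (adjusted p = 0.01518), and by 0.50 with the correction (adjusted p = 0.0009603). As deposited the call was lost without parental replicate 2 or knockout-labelled replicate 1 (adjusted p = 0.05855 and 0.05566). Scaling libraries to a common total also removed it (difference 0.23, adjusted p = 0.1273). WTIP, the third of that family, averaged 0.323 FPKM in vector and 0.975 FPKM in EGR1 cells and was not tested. Of the CCN family, CCN3, CCN5 and CCN6 averaged under 0.2 FPKM in every group, and CCN4 was 1.69, 1.94 and 1.69 FPKM in parental MHCC97H and 1.35, 1.29 and 1.05 FPKM under the label (difference -0.32, adjusted p = 0.03174, and 0.2136 with the correction). The CCN4 call was lost without any of the 3 parental libraries or without knockout-labelled replicate 3, at adjusted p = 0.05372 to 0.1278. It was also lost with quantile normalization (adjusted p = 0.1248). The ANKRD1 relatives ANKRD2 and ANKRD23 averaged under 0.4 FPKM in every group.

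Of the AXL family, TYRO3 went with EGR1 overexpression from 4.73, 4.13 and 4.36 FPKM to 2.69, 3.40 and 3.39 FPKM (difference -0.38, adjusted p = 0.02951). This call was lost without vector replicate 1 or 3 or without any 1 of the 3 EGR1 libraries (adjusted p = 0.05882 to 0.08205), and with every gene above 0 tested (0.06779). Under the knockout label it rose from 4.22, 4.63 and 4.87 FPKM to 6.67, 6.18 and 7.55 FPKM (difference 0.48, adjusted p = 0.004027), and both calls held with the GC and length correction (adjusted p = 0.006567 and 0.02216). MERTK was 2.25-fold higher in parental MHCC97H than in vector cells (adjusted p = 2.127e-05). The ligand GAS6 averaged under 0.1 FPKM in every group. PROS1, a ligand of TYRO3 and MERTK, averaged 23.7 FPKM in vector cells and 0.496 FPKM in parental MHCC97H (difference -4.05, adjusted p = 7.559e-08). It reached the minimum of 1 FPKM there through the vector libraries, so this call counts for little. With EGR1 it differed by 0.40 (adjusted p = 0.03665, and 0.06848 with the correction). The PROS1 call with EGR1 was lost without the same libraries as that of TYRO3 (adjusted p = 0.0618 to 0.1032) and with every gene above 0 tested (0.08012).

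Beyond the 10 genes, lists of the pathway were counted. A YAP/TAZ target signature holds 15 further genes, of which 12 were tested in each EGR1 comparison. In PLC/PRF5, 4 rose and 3 fell, where 19.2% of all genes were higher and 10.4% lower, with a median difference of 0.11 (0.09 over all genes). The GC and length correction gave 3 and 5. GADD45A, a DNA damage and stress protein, rose by 1.01 (adjusted p = 0.002255) and ASAP1, an ARF GTPase activator, by 0.63 (adjusted p = 0.003034). The ectonucleotidase NT5E differed by -0.60 (adjusted p = 0.002849) and FJX1 by -0.52 (adjusted p = 0.01727). The FJX1 call was lost without EGR1 replicate 2 (adjusted p = 0.07031) and with every gene above 0 tested (adjusted p = 0.05536). In MHCC97H, 3 rose and 6 fell under the label, with a median of -0.15, where 34.8% of all genes were higher and 31.5% lower, and 5 rose without knockout-labelled replicate 2. The correction left 3 and 6. IGFBP3, which binds insulin-like growth factors, rose by 0.61 (adjusted p = 0.0005402), GADD45A by 0.51 (adjusted p = 0.003423) and CCDC80 by 0.51 (adjusted p = 0.003637). DOCK5 differed by -0.94 (adjusted p = 0.001093), ASAP1 by -0.75 (adjusted p = 0.00123) and the growth factor TGFB2 by -0.69 (adjusted p = 0.001043). In parental MHCC97H against vector cells 5 of 12 were higher and 4 lower, where 38.8% of all genes were higher and 40.9% lower. By mean FPKM, TGFB2 was 14.9-fold, ASAP1 4.88-fold and MYOF 2.84-fold higher. NUAK2, which averaged 0.747 FPKM in parental MHCC97H, was 9.34-fold lower, IGFBP3 2.92-fold and GADD45A 2.13-fold.

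Of 24 other Hippo kinases and scaffolds, 22 were tested. In PLC/PRF5, 6 rose with EGR1 overexpression, where 19.2% of all genes did, with MAP4K3 at 0.58 (adjusted p = 0.01521), MAP4K5 at 0.56 (adjusted p = 0.007903) and MAP4K4 at 0.47 (adjusted p = 0.01265), all kinases upstream of LATS. Correction for GC content and length left 5 higher and 1 lower, the median went from 0.24 to 0.04, and MAP4K5 no longer passed (0.12, adjusted p = 0.296). MAP4K3 was lost without vector replicate 3 (adjusted p = 0.05364) and MAP4K4 without EGR1 replicate 2 (adjusted p = 0.05072). The count as deposited was 3, 2 and 3 without vector replicate 1, EGR1 replicate 2 or EGR1 replicate 3, and 3 with every gene above 0 tested. In MHCC97H, 7 rose and 11 fell under the label, with a median of -0.27, against shares over all genes of 34.8% and 31.5%. TAOK2 rose by 0.98 (adjusted p = 7.18e-05), RASSF1 by 0.71 (adjusted p = 0.0005419) and CSNK1D by 0.67 (adjusted p = 0.0002298). TAOK1 differed by -1.01 (adjusted p = 0.0009316), MAP4K5 by -0.92 (adjusted p = 0.00121) and MOB1B, a LATS cofactor, by -0.89 (adjusted p = 0.002944). After the GC and length correction 3 were higher and 5 lower, with a median of -0.06, and with a common total 4 and 12.

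Of 18 other YAP binding and junction proteins, 13 were tested, and in PLC/PRF5 3 rose, where 19.2% of all genes did, led by the polarity scaffold DLG1 at 0.55 (adjusted p = 0.007654), while the polarity protein CRB3 differed by -0.56 (adjusted p = 0.004939). Only 1 rose without EGR1 replicate 2 and 1 without EGR1 replicate 3, and the GC and length correction gave 2 higher and 1 lower. Under the knockout label 4 rose and 4 fell, of all genes 34.8% and 31.5%, and with the correction 5 and 4. SFN (14-3-3 sigma) rose by 1.02 (adjusted p = 5.063e-05), CRB3 by 0.92 (adjusted p = 0.0001203) and the polarity scaffold SCRIB by 0.88 (adjusted p = 9.235e-05). The tight junction scaffold TJP1 differed by -1.04 (adjusted p = 0.000126), DLG1 by -0.99 (adjusted p = 0.001054) and the protocadherin FAT1 by -0.96 (adjusted p = 0.0005867).

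CCN1 and CCN2 are also targets of serum response factor and its actin-regulated MRTF cofactors, so 18 genes of that system were counted, and 15 were tested in PLC/PRF5. There 4 fell with EGR1 overexpression, where 10.4% of all genes fell, with MYL9 at -0.89 (adjusted p = 0.004118), ACTB at -0.56 (adjusted p = 0.01589) and CNN2 at -0.42 (adjusted p = 0.006836). After the GC and length correction 3 were higher and 5 lower, of all genes 16.4% and 17.4%. The count of falls as deposited was 2 without vector replicate 1, vector replicate 3 or EGR1 replicate 3, and ACTB lost its call each time (adjusted p = 0.06136 to 0.07746). ACTB also lost it with every gene above 0 tested (adjusted p = 0.1097). Under the knockout label 6 of 14 rose and 1 fell, against 34.8% and 31.5% of all genes, and 7 and 3 with the correction. The rises were led by ZYX at 1.33 (adjusted p = 3.818e-05), TAGLN2 at 1.13 (adjusted p = 5.34e-05) and CNN2 at 1.10 (adjusted p = 5.55e-05), while the cofactor MRTFB differed by -0.80 (adjusted p = 0.0007726).

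Profiles over the 12 libraries were compared by the mean absolute difference of mean-centred log2(FPKM + 1), as a description in which the 2 cell lines carry most of the variation. The nearest genes to YAP1 were STXBP4, PALS1 and PPP4R3B, at 0.055, 0.056 and 0.058. TEAD1 lay nearest to TOPBP1, AHCTF1 and KMT2E, at 0.096 to 0.099. CCN1 had no gene closer than KRT23, at 0.22, followed by APOE and IGFBP1. CCN2 lay nearest to F12, GPC3 and HBQ1, at 0.092 to 0.097, and AXL to SLC25A15, CYFIP2 and CCR6, at 0.086 to 0.089. AJUBA lay nearest to TANC2, NR5A2 and TFAP2C, LATS2 to TFAP2A, INA and SOBP, AMOTL2 to TCOF1, DHX38 and SEC14L2, and CRIM1 to ZADH2, MEGF9 and GPD1L.

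The genes are spread over the genome, with TEAD1 and YAP1 both on chromosome 11 of GRCh38 (12674591 to 12944483 and 102110461 to 102233423, plus strand, GENCODE 29). CCN1 lies on chromosome 1 (85580761 to 85583962, plus), CCN2 on chromosome 6 (131948176 to 131951373, minus) and AXL on chromosome 19 (41219203 to 41261766, plus). In the annotation, exons of the opposite-strand gene AL133346.1 cover 8.34% of CCN2 exon bases and those of AP000942.2 cover 9.98% of YAP1 exon bases. Whether strand was used in counting is not given in the sources used here, so reads of these pairs may not have been told apart. Overlap was at most 3.13% for the other genes.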

How the data were processed

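The authors deposited FPKM for 12 libraries of oligo(dT)-selected mRNA treated with duplex-specific nuclease. The submitters' processing notes name StringTie and hg38, while the aligner and annotation are not given in the sources used here. All value columns were mapped to a sample. Libraries were grouped by their labels, which call replicates biological.

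With limma 3.58.1 in R 4.3.3, log2(FPKM + 1) was fitted with an intensity trend for each comparison alone, over genes averaging 1 FPKM or more in its libraries, and p-values (2-sided) were adjusted by the Benjamini-Hochberg method at 0.05. For the difference between changes all 12 libraries were fitted. GC and length correction removed a spline (5 degrees of freedom) on each property of the longest GENCODE 29 transcript, which 99.3% of the 19932 names other than assembled loci matched, so that 10994 of 11671 and 10969 of 11577 tested genes had values in the 2 EGR1 comparisons. For simulated data, 200 genes were drawn and each changed by 1 in log2(FPKM + 1). The fit recovered 88.6% of those tested in the overexpression design and 87.2% in the MHCC97H design. Recovery of smaller differences was not simulated. With a GC trend simulated too, the uncorrected fit wrongly called 17.7% and 12.5% of the genes left unchanged, and the corrected fit 0.0836% and 0.0745%. The simulated trend rose with GC content alike in both designs. In the data the trend fell in PLC/PRF5 and rose more steeply in MHCC97H, so these shares are not those of the data. Alternatives are given in the closing section.

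Named were the 10 genes, EGR1, their family relatives and the 3 nearest profiles. Up to 3 largest rises and falls per list and comparison were also named, with any of the 10 genes in a list counted. These were taken among genes past the threshold with groups that did not overlap. Genes and lists were chosen with earlier results of these data known. Depth is unknown. Figures were drawn with matplotlib 3.10.9.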

Additional observations from a re-analysis of the deposited data

How the results depend on the processing

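The alternatives were a pseudocount of 0.1, testing every gene above 0, scaling to a common total, quantile normalization, no intensity trend, all 12 libraries in one fit, a replicate block, correction for GC content and length, by itself or together with the block, a threshold of 0.01 and leaving out each library. With EGR1 overexpression 3457 genes passed, 1468 at a threshold of 0.01, and 1919 to 4007 with a library left out, the lowest counts coming without EGR1 replicate 2 (1919), EGR1 replicate 3 (2208) and vector replicate 3 (2246). Under the knockout label 3 of the 10 genes passed, where 66.3% of all genes tested did. With the GC and length correction 5 passed, where 47.5% of all genes did. Quantile normalization also gave 5, and leaving a library out 2 to 4. CCN1 (0.41, adjusted p = 0.04102) and LATS2 (0.31, adjusted p = 0.03681) were the genes gained with quantile normalization. The CCN1 call counts for little, since this gene reached the minimum of 1 FPKM through the libraries under the label.

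Of the values of single genes under the alternatives, 552 held both sign and call status, 20 lost a call, 9 gained one and 19 turned. Under the knockout label, scaling to a common total gave -0.0709 for AJUBA and -0.0944 for CRIM1. The GC and length correction gave -0.0137 for AMOTL2 and -0.198 for AJUBA, with and without the block. CRIM1 ran from -0.0724 to 0.159 with a library left out, and was below 0 without parental replicate 3 (-0.0083) and knockout-labelled replicate 1 (-0.0724). For the difference between changes, CCN2 was -0.0742 with a common total and -0.255 with the correction, with and without the block, and -0.048 to 0.116 with a library left out. Quantile normalization gave 0.0326 for AMOTL2, 0.0606 for LATS2 and 0.0029 for CRIM1, and the correction 0.0255 for CRIM1, again with and without the block. The cause of these turns was not tested.

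The replicate numbers of the labels were not used as pairs in the main fits. Correlations of same-numbered deviations ran from -0.13 to 0.14 in PLC/PRF5, from 0.03 to 0.47 in MHCC97H and from -0.39 to -0.01 between the controls. Those of other numbers in MHCC97H ran from -0.41 to 0.38. With 3 libraries a group these values cannot exclude pairing. With the replicate block, 8, 3, 9 and 5 of the 10 genes passed in the overexpression, knockout-label, control and difference comparisons, as many as without it, and 3253, 7987, 9249 and 7839 of all genes. With the correction and the block together 4 passed under the knockout label, since AJUBA did not (adjusted p = 0.0603). With 3 libraries a group, no known depth and clones behind the knockout label, the precision is that of the intervals given.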
